A study of Mus musculus with 6 samples.

Results

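Autophagy and lysosome genes were examined in C2C12 myotubes, the multinucleate muscle cells that this mouse myoblast line forms when it differentiates. The 40 genes were listed by name and not by their values. They comprise 30 genes for building the autophagosome and loading it with cargo, 8 genes for lysosomal proteins, and the transcription factor genes Tfeb and Tfe3. A row of their own on the array was found for 36 of the 40, of 14852 genes that had one. These were 26 autophagosome genes, all 8 lysosome genes and both factors. Of the rest, 3 (Atg3, Atg7 and Atg16l1) lay only on rows shared with another gene, and Atg14 had no named row.

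In the ATF4 group (3 arrays) the myotubes had received an adenovirus that makes eGFP together with FLAG-tagged ATF4, the transcription factor made when amino acids run short or unfolded protein collects. In the control group (3 arrays) the virus made eGFP together with ATF4deltabZIP-FLAG, which lacks the bZIP domain that binds DNA. Viral infection, eGFP and an ATF4-derived FLAG-tagged protein were therefore common to all 6 arrays, and myotubes without virus were not analysed here. Total RNA was taken 48 hours after infection and read on Affymetrix mouse exon arrays, 1 per sample. Values are transcript-level summaries on a scale taken to be log2, which is inferred from their range, so that a difference of 1 is a doubling. The labels number the samples 1 to 3 within each group and leave unsaid whether each was a culture of its own, so a p-value here measures only how these arrays spread, which may be technical. The number of arrays limits the precision.

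In autophagy a cup-shaped membrane closes around cytoplasm or an organelle, and the resulting autophagosome fuses with a lysosome, whose acid hydrolases digest the contents. A kinase complex around ULK1 starts the process, a lipid kinase complex marks the membrane, and ubiquitin-like conjugation attaches LC3 and GABARAP proteins to it. In skeletal muscle this route clears mitochondria and proteins and recovers amino acids during fasting and denervation. ATF4 and its partner CHOP have been reported to induce a set of autophagosome genes in mouse embryonic fibroblasts deprived of an amino acid. TFEB and its relatives are the known regulators of lysosomal genes.

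As a check of the labels, asparagine synthetase (Asns), a standard ATF4 target, had 10.68, 10.56 and 10.26 in ATF4 arrays 1 to 3, against 9.05, 8.33 and 7.99 in control arrays 1 to 3 (limma adjusted p = 0.00646). The row for Atf4 cannot serve as such a check, because both viral constructs hold Atf4 sequence. Arrays of sample number 3 stood apart in both groups: their interquartile ranges were 1.80 (ATF4) and 1.63 (control), against 2.19 to 2.28 on the other 4 arrays. Same-numbered arrays deviated together from their group means, so a fit that takes the sample number as a block (a replicate block) is given beside the fit without it wherever it changed a call. For the myotube label, 8 myotube markers were measured. Among them the rows for Tnni2, Tnnt3 and Acta1, which encode troponins and skeletal actin, were brighter than 99.8%, 99.7% and 99.5% of rows. The list mean on single arrays was 8.38 to 9.19 for the myotube markers and 6.82 to 7.23 for markers of cycling myoblasts. The upper quartile of all rows on single arrays was 6.80 to 7.05, so the cycling myoblast markers were not dim as a list. The share of cells that had not differentiated was not tested. In the RefSeq table Map1lc3b overlaps Zcchc14, Becn1 overlaps Cntd1, Ctsb overlaps Fdft1, Atg12 overlaps Ap3s1, Npc1 overlaps Rmc1 and Atp6v1c2 overlaps Pdia6, so those values are less certain.

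No gene of the list passed the test without the block, while the rows of Wipi2 and Atg4a, which both serve the autophagosome, rose with it. Without the block 0 of 36 members passed in either direction, where 0.593% of all 16700 rows did (limma, Benjamini-Hochberg adjusted p below 0.05), 0.569% higher in ATF4 arrays and 0.024% lower. Without both number 3 arrays 0 members passed, against 0.737% of all rows for higher and 0.204% for lower. At an unadjusted p below 0.05 the fit of all 6 arrays without the block gave 2 members, again Wipi2 and Atg4a, and 5.26% of all rows. With the block 2 of 36 members were higher in ATF4 arrays and 0 were lower, which is 5.56% of the members against 2.4% of all rows for higher, 1.16% for lower and 3.56% in either direction. Among the brighter 8350 rows, where 35 of the 36 members lie, 3.93% were higher. Neither call was left when the number 1 pair or the number 3 pair was taken out of the block fit. The arrays measure RNA pooled over a culture, so fewer cells carrying a transcript and less of it per cell cannot be told apart.

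**Figure D1:**
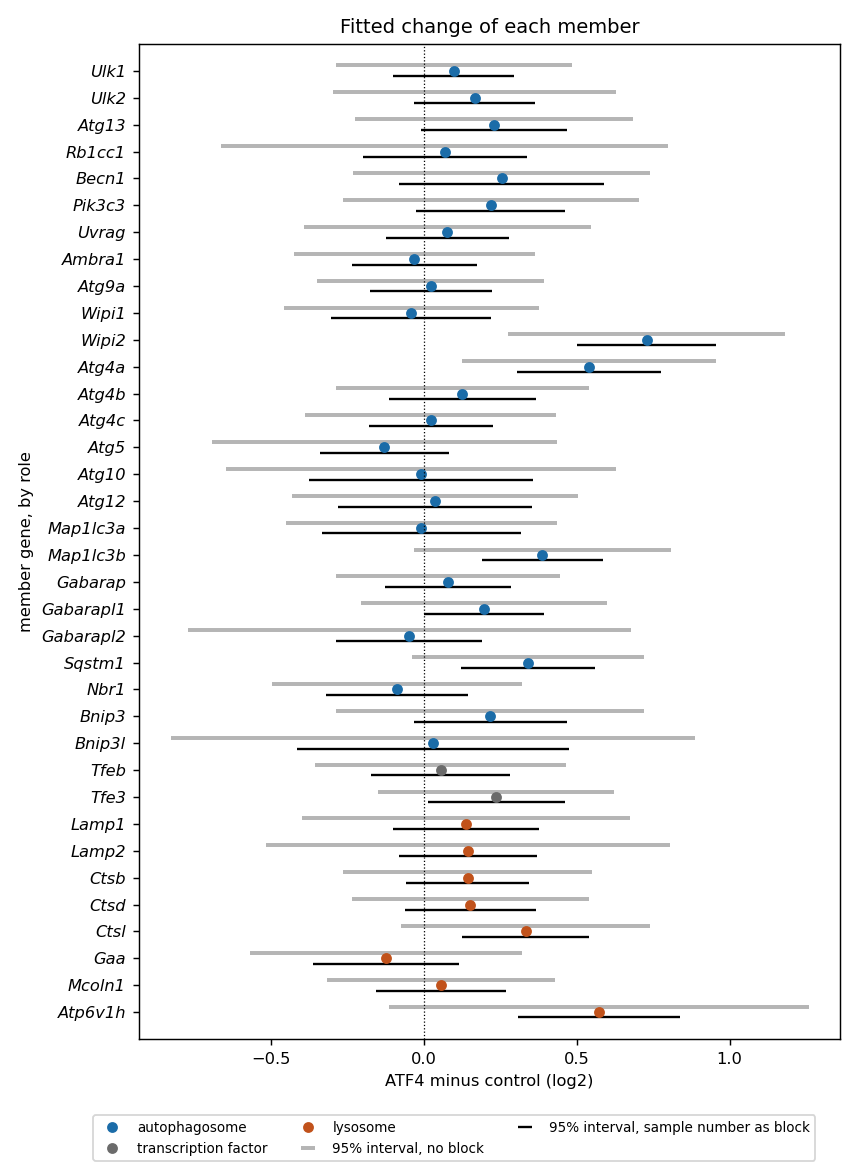
Fitted change, ATF4 minus control on the log2 scale (x axis), of the 36 members with a row of their own (y axis, by role). Points are coloured by side, grey bars are 95% intervals without the block and black bars 95% intervals with the sample number as a block. The intervals are not adjusted for the number of rows. Wipi2 (0.73) and Atg4a (0.54) lie clear of 0 on both bars, while the points of most members lie between -0.13 and 0.25. Map1lc3b, Sqstm1, Ctsl, Atp6v1h and Tfe3 lie clear of 0 on the black bar only.

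Wipi2 encodes a reader of phosphatidylinositol 3-phosphate that brings the ATG16L1 complex to the growing membrane. Its row (transcript cluster 6935343) had 8.01, 7.71 and 7.45 in ATF4 arrays 1 to 3, against 7.12, 7.10 and 6.77 in control arrays 1 to 3. Every ATF4 array was above every control array. The difference was 0.73 (standard error 0.20), a 1.66-fold higher level, with a limma adjusted p of 0.265 and of 0.0178 with the block. Within sample numbers 1, 2 and 3 it was 0.89, 0.61 and 0.69. Without both number 3 arrays it was 0.75, with a limma adjusted p of 0.129, and of 0.0731 in the block fit. Without the number 1 pair that p was 0.0618, and without the number 2 pair 0.00994.

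Atg4a encodes a cysteine protease that trims LC3 and GABARAP proteins before and after they sit on the membrane. Its row (transcript cluster 6907780) had 7.54, 7.64 and 7.47 in ATF4 arrays 1 to 3, against 7.07, 7.22 and 6.75 in control arrays 1 to 3. These groups did not overlap either. The difference was 0.54 (standard error 0.19), or 1.45-fold, with a limma adjusted p of 0.513 and of 0.0464 with the block. Without both number 3 arrays the difference was 0.45 and the limma adjusted p of the block fit 0.111. It was 0.116 without the number 1 pair and 0.0391 without the number 2 pair. The gene overlaps Psmd10, a proteasome assembly gene, in the RefSeq table, and the row of Psmd10 had a difference of -0.04 (limma adjusted p = 1).

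**Figure D2:**
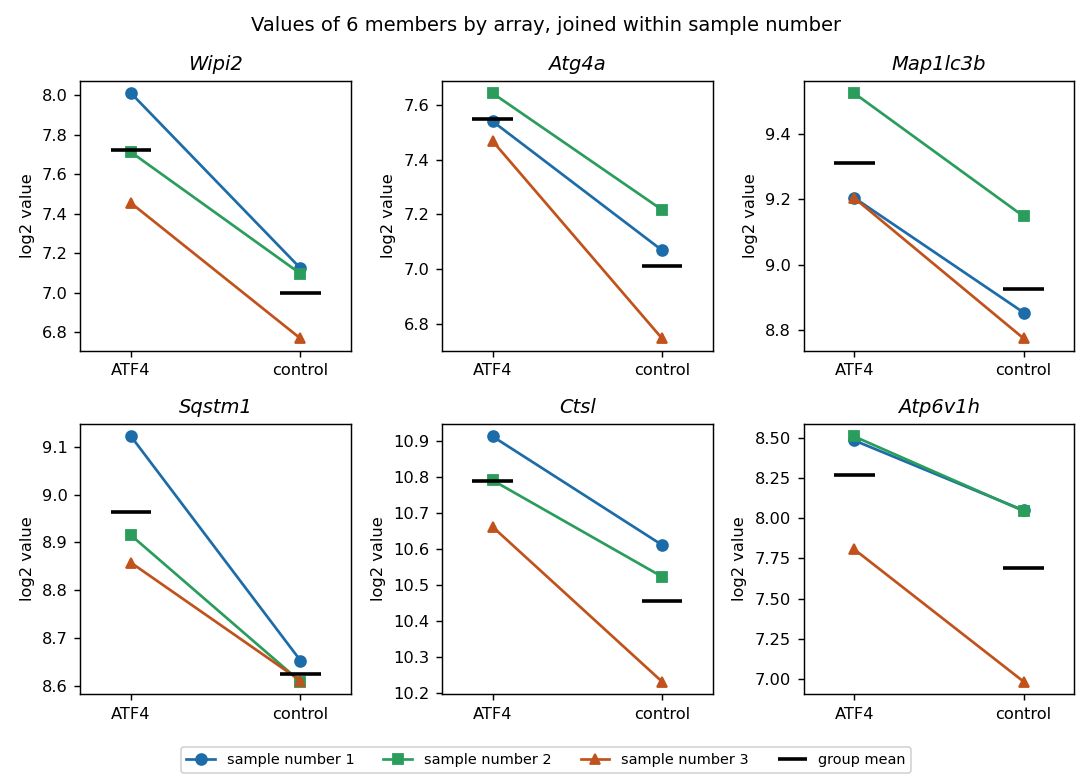
Log2 values (y axis) of 6 members on ATF4 and control arrays (x axis), with lines joining arrays of the same sample number and black bars at the group means. All 18 lines fall toward the control side. The number 3 array is the lowest of its group, or level with the lowest, in every panel.

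The promoter windows of these 2 genes are shown because they were the members that passed. Sequences are from RefSeq (GRCm38.p6), 250 bases before to 50 after an annotated start, while the arrays were processed against mm9. A pair of motifs was searched for on both strands. TGATGNAA is the core of the composite element that ATF4 binds with C/EBP partners, and CACGTG is the core of the E-box in the element bound by TFEB. In these sequences capitals mark a match to either, and none of the 3 windows holds one.
Wipi2 (chr5:142629334-142629633, plus strand): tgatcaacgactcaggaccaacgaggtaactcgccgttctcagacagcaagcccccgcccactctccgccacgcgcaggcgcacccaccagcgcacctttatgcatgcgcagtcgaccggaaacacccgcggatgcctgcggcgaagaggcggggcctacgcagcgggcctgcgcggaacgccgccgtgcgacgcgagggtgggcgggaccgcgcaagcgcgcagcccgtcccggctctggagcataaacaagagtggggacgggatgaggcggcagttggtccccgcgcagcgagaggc
Atg4a, start 1 (chrX:140953595-140953894, plus strand): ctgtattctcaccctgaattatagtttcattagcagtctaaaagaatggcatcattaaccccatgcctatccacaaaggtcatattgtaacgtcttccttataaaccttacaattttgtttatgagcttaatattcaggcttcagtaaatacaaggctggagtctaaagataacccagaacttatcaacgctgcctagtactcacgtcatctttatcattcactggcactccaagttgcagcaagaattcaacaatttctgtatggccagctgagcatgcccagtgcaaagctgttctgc
Atg4a, start 2 (chrX:140956657-140956956, plus strand): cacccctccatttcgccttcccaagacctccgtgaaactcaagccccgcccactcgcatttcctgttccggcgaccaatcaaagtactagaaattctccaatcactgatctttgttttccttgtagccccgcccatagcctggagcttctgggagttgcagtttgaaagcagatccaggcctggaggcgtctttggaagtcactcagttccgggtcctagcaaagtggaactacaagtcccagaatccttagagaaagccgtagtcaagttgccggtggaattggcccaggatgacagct

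The initiation kinase genes did not pass in either fit. Atg13, the scaffold that joins the kinase to its partners, had 7.31, 7.09 and 6.76 in ATF4 arrays, against 7.07, 6.71 and 6.70 in control arrays, a difference of 0.23 (95% interval -0.23 to 0.68). Ulk2, one of the kinases, had 7.06, 7.27 and 6.75 in ATF4 arrays, against 6.86, 7.11 and 6.61 in control arrays, a difference of 0.17 (-0.30 to 0.63). Its paralogue Ulk1 had 0.10 and Rb1cc1, which encodes the large scaffold FIP200, had 0.07. All 4 means were higher in ATF4 arrays, and 3 of the 4 genes were higher within every sample number, where 17.0% of all rows were. In each of the 4 the groups overlapped.

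No gene of the lipid kinase complex passed in either fit. Becn1, the regulatory subunit Beclin 1, had 8.28, 8.14 and 8.07 in ATF4 arrays, against 8.12, 8.15 and 7.46 in control arrays. Only control array 3 stood apart there, and without both number 3 arrays the difference was 0.07 in place of 0.25. Pik3c3, the catalytic subunit VPS34, had 7.20, 7.19 and 6.87 in ATF4 arrays, against 7.04, 7.11 and 6.46 in control arrays, a difference of 0.22 (-0.27 to 0.70). Uvrag, a subunit of the complex that acts on late endosomes, had 0.08, and Ambra1, a positive regulator of Beclin 1, had -0.03. Of the genes for membrane supply and lipid reading besides Wipi2, Atg9a, a scramblase whose vesicles seed the membrane, had 0.02. Wipi1 had 7.56, 7.37 and 7.07 in ATF4 arrays, against 7.47, 7.31 and 7.35 in control arrays, a difference of -0.04 with overlapping groups.

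Among the remaining conjugation genes the values lay on both sides of 0. Atg4b had 6.62, 6.22 and 6.48 in ATF4 arrays, against 6.49, 6.27 and 6.19 in control arrays, a difference of 0.13 with overlapping groups. Its relative Atg4c had 0.02. Atg12, the ubiquitin-like protein joined to ATG5, had 0.04, and Atg10, the enzyme that joins them, had -0.01. Atg5 was lower in ATF4 arrays within every sample number, with differences of -0.16, -0.20 and -0.02 (fitted difference -0.13, 95% interval -0.69 to 0.44), as 24.5% of all rows were. It was the 1 member of the 36 with that pattern. The rows shared by Atg3 with D930048N14Rik, Atg7 with Camsap1 and Atg16l1 with Scarna6 had differences of 0.24, 0.21 and 0.20 (limma adjusted p = 1 for each) and cannot be assigned to 1 gene. A shared row of Bnip3l with Zranb3 had -0.23 and was lower within every sample number, as 24.5% of all rows were. Its groups were separate with ATF4 lower, where 4.62% of all rows had such groups. It cannot be assigned to 1 gene either.

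Of the LC3 and GABARAP genes, whose products coat the autophagosome and bind cargo receptors, Map1lc3b had the highest difference. It had 9.20, 9.53 and 9.20 in ATF4 arrays, against 8.85, 9.15 and 8.77 in control arrays. The groups were separate by a narrow margin, between ATF4 array 3 and control array 2. The difference was 0.39 (standard error 0.19), a 1.31-fold higher level (limma adjusted p = 1, or 0.0693 for the block), and passed in neither fit. Gabarapl1 had 8.63, 8.36 and 8.37 in ATF4 arrays, against 8.44, 8.14 and 8.19 in control arrays, a difference of 0.20. Gabarap had 0.08, Map1lc3a -0.01 and Gabarapl2 -0.05. Gabarapl2 was low on both number 3 arrays, at 6.66 (ATF4) and 6.88 (control), against 7.66 to 7.82 on the other arrays.

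Cargo receptors tie ubiquitinated proteins or mitochondria to LC3. Sqstm1, the receptor for ubiquitinated protein, had 9.12, 8.91 and 8.86 in ATF4 arrays, against 8.65, 8.61 and 8.61 in control arrays. The groups did not overlap, and the control arrays lay close together (SD 0.02, n = 3). The difference was 0.34 (standard error 0.17), or 1.27-fold (limma adjusted p = 1, or 0.120 for the block), which passed in neither fit. Bnip3, a receptor on mitochondria, had 8.92, 9.49 and 9.49 in ATF4 arrays, against 8.81, 9.39 and 9.06 in control arrays, a difference of 0.22. Its relative Bnip3l had 0.03 and spread over 7.96 to 9.63 in the control group alone. The receptor gene Nbr1 had -0.09.

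Of 12 genes listed as reported ATF4 or CHOP targets in starved fibroblasts, 9 had a row of their own and showed no common direction. These were Map1lc3b, Atg12, Becn1, Gabarapl2, Sqstm1, Nbr1, Atg10, Gabarap and Atg5. None of the 9 passed in either fit. A higher mean in ATF4 arrays was found for 5 (55.6%) and a lower one for 4. Of all rows 41.7% had a higher mean, and of the brighter 8350 rows 48.3%. The median of the 9 was 0.04, beside -0.03 over all rows. The list does not separate ATF4 targets from CHOP targets. The shared rows of Atg3, Atg7 and Atg16l1 (0.24, 0.21 and 0.20) were each higher within every sample number. Those of Atg7 and Atg16l1 had separate groups, but no shared row can be assigned to 1 gene. With the block and no adjustment 2 of the 9 (Map1lc3b and Sqstm1) had a limma p below 0.05, both with ATF4 higher. Of all 16700 rows 1385 had such a p with ATF4 higher, as had 1015 of the brighter 8350. In either direction 17.7% of all rows had it. The same 2 were the members of that list whose groups did not overlap with ATF4 higher, where 4.5% of all rows and 6.53% of the brighter 8350 had such groups.

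**Figure D3:**
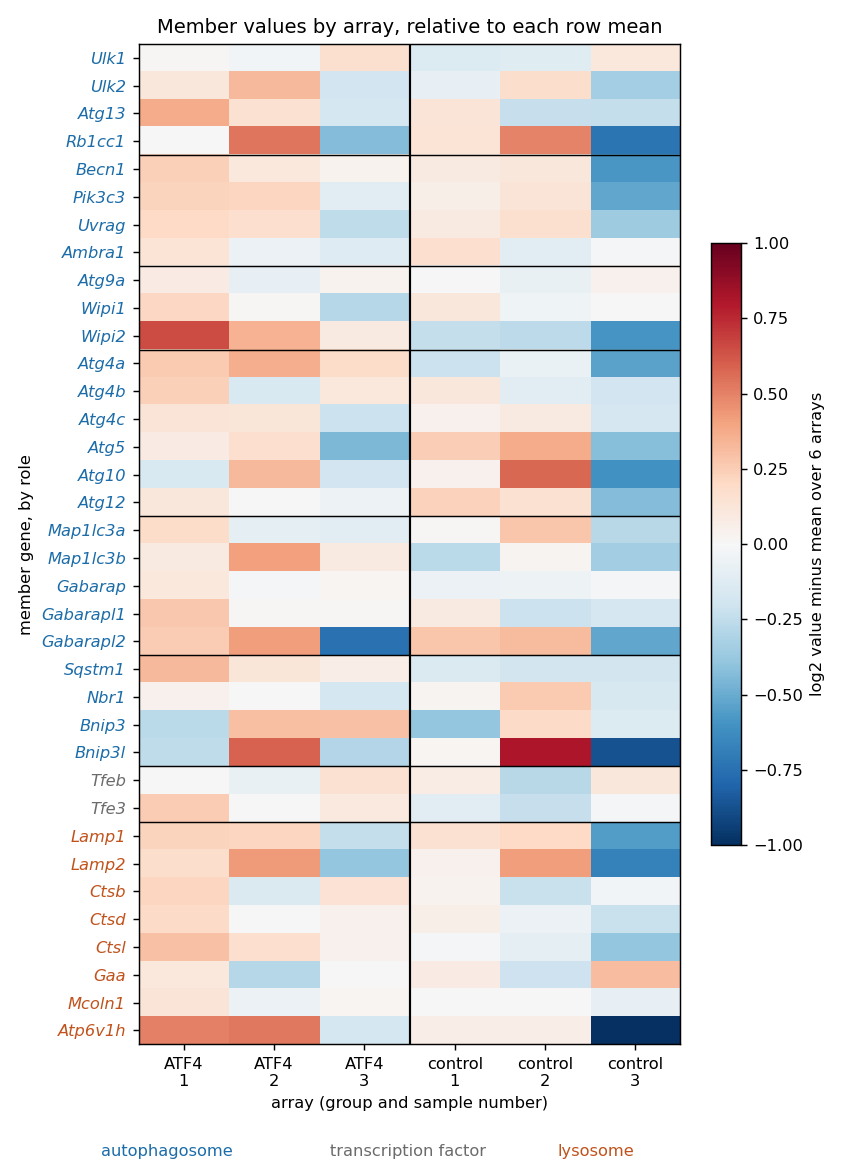
Log2 value minus the row's mean over the 6 arrays (colour), for the 36 members (y axis, by role, names coloured by side) on ATF4 arrays 1 to 3 and control arrays 1 to 3 (x axis). The number 3 arrays are blue for many members: the member median was -0.16 for ATF4 array 3 and -0.27 for control array 3, each against the other arrays of its group. Over the brighter 8350 rows these medians were -0.13 and -0.22.

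No lysosome gene passed in either fit. Ctsl, the cysteine protease cathepsin L, had 10.91, 10.79 and 10.66 in ATF4 arrays, against 10.61, 10.52 and 10.23 in control arrays. It was the 1 lysosome gene whose groups did not overlap, with a difference of 0.33 (standard error 0.18) and a limma adjusted p of 1 (0.114 with the block). Atp6v1h, a regulatory subunit of the proton pump that acidifies the lysosome, had 8.48, 8.51 and 7.81 in ATF4 arrays, against 8.05, 8.04 and 6.99 in control arrays. The difference of 0.57 (standard error 0.31) was the second highest among the 36, but both number 3 arrays were low and the groups overlapped. The limma adjusted p was 1, and 0.0535 with the block. Without both number 3 arrays the difference was 0.45, and in the block fit the limma adjusted p was then 0.111. Without the number 2 pair it was 0.0396. Leaving out 1 array moved the difference to 0.22 (without control array 3) or 0.80 (without ATF4 array 3).

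The other lysosome genes varied less between groups. Ctsd, the aspartic protease cathepsin D, had a difference of 0.15 (95% interval -0.24 to 0.54), and Ctsb, cathepsin B, had 0.14 (-0.26 to 0.55). The membrane glycoprotein genes Lamp1 and Lamp2 had 0.14 each. Mcoln1, a calcium channel of the lysosomal membrane, had 0.06. Gaa, the acid glucosidase that breaks down glycogen in the lysosome, had 6.48, 6.09 and 6.38 in ATF4 arrays, against 6.46, 6.17 and 6.68 in control arrays, a difference of -0.13. It was the 1 lysosome gene with a lower mean in ATF4 arrays.

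Set side by side, the changes of autophagosome and lysosome genes lay in overlapping ranges, -0.13 to 0.73 and -0.13 to 0.57. The median difference was 0.08 over 26 autophagosome genes and 0.14 over 8 lysosome genes, beside -0.03 over all rows and -0.01 over the brighter 8350 rows. Within sample numbers 1, 2 and 3 the autophagosome median was 0.12, 0.04 and 0.17 and the lysosome median 0.13, 0.04 and 0.28. The gap between the medians, -0.07 over the fitted values, was 0.024 when arrays were scaled to one median and interquartile range, where the lysosome median was 0.062. Without control array 3 the medians were 0.021 for autophagosome and 0.052 for lysosome genes, and without ATF4 array 3 they were 0.16 and 0.23. With the block 2 autophagosome genes and 0 lysosome genes passed, and the difference between those counts was not tested. Most genes on both sides had a higher mean in ATF4 arrays, 19 of 26 and 7 of 8, against 41.7% of all rows and 48.3% of the brighter 8350. These counts were 14 of 26 and 5 of 8 without control array 3, and 25 of 26 and 7 of 8 without ATF4 array 3. With 1 array left out, 4 to 7 of the 36 members changed sign, and the differences of Lamp1 and Lamp2 were -0.11 and -0.16 without control array 3. A higher value within every sample number was found for 12 of 26 and 6 of 8, against 17.0% of all rows, and separate groups with ATF4 higher for 4 of 26 and 1 of 8, against 4.5%. Of all 36 members, 35 were brighter than the median row, and among the brighter 8350 rows 24.3% were higher within every sample number and 6.53% had separate groups. On a row of its own, no member had separate groups with ATF4 lower, where 4.62% of all rows did.

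**Figure D4:**
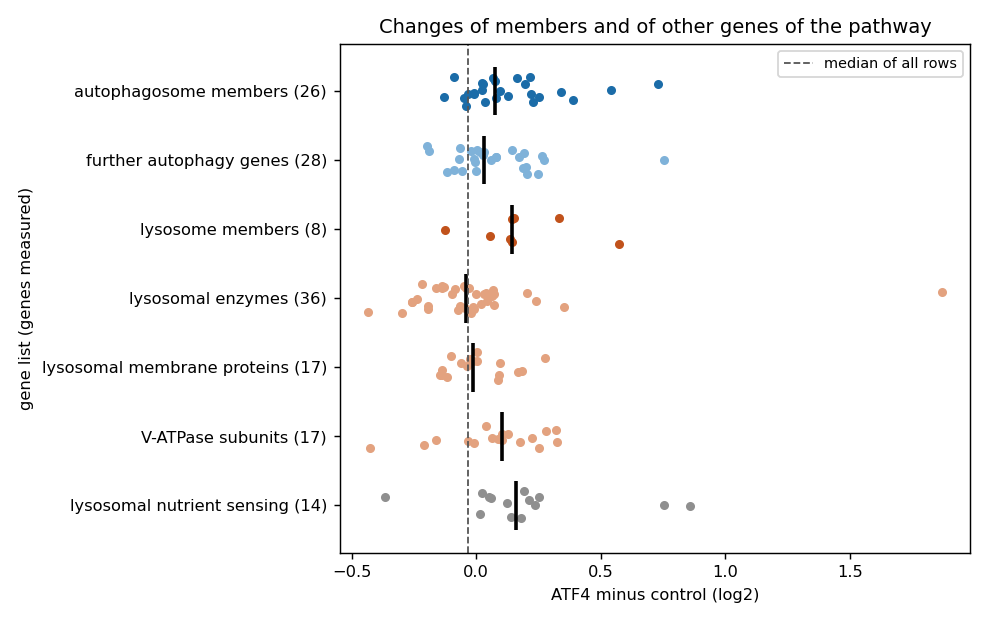
Fitted change, ATF4 minus control on the log2 scale (x axis), of each gene in 7 lists (y axis, with the number measured). Black bars are list medians and the dashed line is the median of all rows (-0.03). The highest point is Gla (1.87) among the lysosomal enzymes, whose median (-0.04) is lower than that of the 8 lysosome members (0.14).

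The lysosome genes were also compared by their promoter windows. Of the 6 with a window in the RefSeq table, 5 (all but Lamp2) held the E-box core CACGTG, against 5 of 23 autophagosome genes (Atg14, Atg3, Atg5, Atg7 and Bnip3) and 7.15% of 32851 windows of the same length. Genes were counted if any of their windows held a match, while the share of 7.15% is of single windows, so the measures are unlike. The wider lysosomal lists lay near the autophagosome share of 21.7%: 8 of 32 enzymes, 4 of 15 membrane proteins (26.7%) and 4 of 15 subunits of the proton pump (26.7%). Lamp1 held 4 matches in its window, a number reached or passed by 0.0244% of all windows. The Lamp1 and Ctsl windows are printed whole, with capitals for the motifs as above. Those in Ctsl mark CACGTG and TTACATCA, the reverse complement of a TGATGNAA match.
Lamp1 (chr8:13158911-13159210, plus strand): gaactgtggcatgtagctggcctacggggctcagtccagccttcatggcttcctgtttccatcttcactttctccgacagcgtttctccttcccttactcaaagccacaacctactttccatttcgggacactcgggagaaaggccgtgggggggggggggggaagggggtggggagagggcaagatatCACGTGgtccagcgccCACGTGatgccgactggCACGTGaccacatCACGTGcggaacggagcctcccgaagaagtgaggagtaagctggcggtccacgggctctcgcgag
Ctsl (chr13:64370471-64370770, minus strand): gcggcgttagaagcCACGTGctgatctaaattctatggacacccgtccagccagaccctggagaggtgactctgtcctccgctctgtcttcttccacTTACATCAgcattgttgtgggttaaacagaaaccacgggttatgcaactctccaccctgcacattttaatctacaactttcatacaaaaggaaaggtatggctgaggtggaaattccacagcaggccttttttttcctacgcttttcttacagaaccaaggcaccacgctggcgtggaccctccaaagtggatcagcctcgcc

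Stretches around the E-box cores of the other lysosome genes follow, with the core in capitals.
Ctsd, match 1 (chr7:142388052-142388077, minus strand): tccccCACGTGacctgtatccagtca
Ctsd, match 2 (chr7:142387905-142387940, minus strand): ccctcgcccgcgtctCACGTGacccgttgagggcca
Gaa (chr11:119267808-119267843, plus strand): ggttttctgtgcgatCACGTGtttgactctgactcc
Mcoln1, match 1 (chr8:3500433-3500468, plus strand): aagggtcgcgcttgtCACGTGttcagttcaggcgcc
Mcoln1, match 2 (chr8:3500459-3500494, plus strand): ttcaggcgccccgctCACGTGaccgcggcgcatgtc

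Of these, Ctsd and Mcoln1 held the longer palindrome TCACGTGA, which was found in 0.974% of all windows and contains the CACGTG core. It was also held by 1 of 23 autophagosome genes (Atg3) and by 3 of 27 further autophagy genes. Of the wider lysosomal lists, 3 of 15 membrane proteins, 3 of 15 pump subunits and 2 of 32 enzymes held it. The ATF4 composite core TGATGNAA was found in 1 of 31 members with a window, Ctsl, and in 3.97% of all windows, the members again counted by gene. For comparison, the match in the window of Asns is printed with the core in capitals. A match is a description of letters in a window and not a bound site.
Asns (chr6:7693210-7693247, minus strand): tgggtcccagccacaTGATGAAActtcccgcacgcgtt

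Among transcription factors of lysosomal genes, the member Tfe3 had 6.46, 6.21 and 6.31 in ATF4 arrays, against 6.09, 5.98 and 6.20 in control arrays. The groups did not overlap but nearly touched, and the difference of 0.24 (95% interval -0.15 to 0.62) did not pass. Tfeb had 5.83, 5.75 and 5.98 in ATF4 arrays, against 5.90, 5.55 and 5.94 in control arrays, a difference of 0.05. Mitf, another factor of this family and no member of the list, had 6.80, 7.18 and 6.71 in ATF4 arrays, against 6.18, 6.36 and 5.91 in control arrays. It rose with the block, by 0.75 or 1.68-fold (limma adjusted p = 0.232, and 0.0147 with the block). Without both number 3 arrays the difference was 0.72 and the limma adjusted p of the block fit 0.0667. Tfec, the remaining relative, had 0.18 (limma adjusted p = 1).

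Related genes had unequal changes. Among the PROPPIN genes, readers of phosphatidylinositol 3-phosphate, Wdr45 had 8.07, 8.11 and 7.67 in ATF4 arrays, against 7.09, 7.43 and 7.07 in control arrays. It rose with the block, by 0.75 or 1.69-fold (limma adjusted p = 0.214, or 0.0228 for the block). In the block fit that p was 0.0660 without the number 1 pair and 0.0693 without the number 3 pair. Beside it Wipi2 had 0.73, Wipi1 -0.04 and Wdr45b -0.12. Among the proteases Atg4a had 0.54, Atg4b 0.13, Atg4c 0.02 and Atg4d -0.20. These differences between relatives were seen before they were set out and were not tested.

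**Figure D5:**
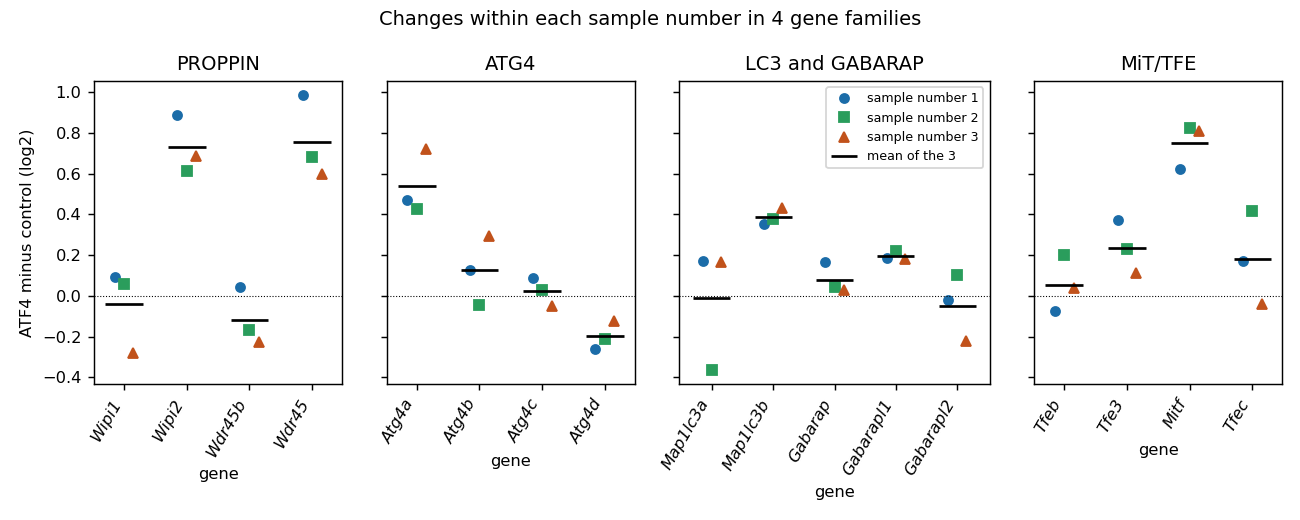
Change within each sample number, ATF4 minus control on the log2 scale (y axis), of genes in 4 families (x axis), with a bar at the mean of the 3. Wipi2, Wdr45, Atg4a, Map1lc3b, Gabarapl1, Gabarap, Tfe3 and Mitf lie above 0 in every sample number.

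Other genes of the pathway gave 1 call without the block, where 0.569% of all rows were higher, and 4 with it, where 2.4% of all rows and 3.93% of the brighter 8350 were. The share of a list that was called stands beside its count below. Of 28 further autophagy genes measured (35 listed), 0 passed without the block and 1 (3.57%), Wdr45, rose with it (median 0.03). A higher mean in ATF4 arrays was found for 17 of the 28 (60.7%). Within every sample number 7 were higher and 3 lower. Plekhm1, an adaptor for fusion with the lysosome, had a difference of 0.27 (limma adjusted p = 1). Of 36 lysosomal enzymes measured (39 listed) 1 rose (2.78%), 0 fell and 35 did not pass, the same counts in each fit, and the median was -0.04. The 1 was Gla, alpha-galactosidase A, which removes galactose from glycolipids. Its row (transcript cluster 7019519) had 7.83, 7.84 and 7.05 in ATF4 arrays, against 6.12, 5.56 and 5.44 in control arrays.

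Every ATF4 array of Gla was above every control array. The difference was 1.87 (standard error 0.26), a 3.65-fold higher level (limma adjusted p = 0.0111, or 0.00455 for the block). The call ended without ATF4 array 1 (limma adjusted p = 0.0780) and when arrays were centred (0.0875) or scaled to one interquartile range (0.0606). Without both number 3 arrays the difference was 2.00 (limma adjusted p = 0.0255). Its window holds 2 matches to CACGTG, both within TCACGTGA, printed here with the core in capitals, and none to TGATGNAA.
Gla, match 1 (chrX:134601212-134601247, minus strand): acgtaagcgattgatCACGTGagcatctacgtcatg
Gla, match 2 (chrX:134601179-134601214, minus strand): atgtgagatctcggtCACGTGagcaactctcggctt

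Of the 36 enzymes, 12 (33.3%) had a higher mean in ATF4 arrays, against 41.7% of all rows and 48.3% of the brighter 8350. Within every sample number 4 (11.1%) were higher and 11 lower, against 17.0% and 24.5% of all rows. Among the brighter 8350 rows 24.3% were higher within every sample number. Separate groups were found for 3 enzymes with ATF4 higher and 4 with ATF4 lower, against 4.5% and 4.62% of all rows. Ctsh, cathepsin H, had 5.35, 5.60 and 5.18 in ATF4 arrays, against 5.62, 6.11 and 5.69 in control arrays, a difference of -0.43 with groups that did not overlap (limma adjusted p = 1, or 0.0752 for the block). Of 17 lysosomal membrane proteins measured (20 listed), 0 passed in either fit (median -0.01). By their means 8 were higher in ATF4 arrays and 9 lower, and within every sample number 4 were higher and 4 lower. In that list the cystine exporter Ctns had 0.27 and the cholesterol transporter Npc1 had 0.18.

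Of 17 subunits of the proton pump measured besides Atp6v1h (20 listed), 0 passed in either fit, with a median of 0.10. A higher mean in ATF4 arrays was found for 12 of the 17 (70.6%), against 41.7% of all rows and 48.3% of the brighter 8350. Within every sample number 7 (41.2%) were higher and 3 lower. Of all rows 17.0% were higher in that way, and of the brighter 8350 rows 24.3%. The catalytic subunit Atp6v1a had a difference of 0.32, and Atp6v1c2, an alternative form of the C subunit, had -0.43, each with groups that did not overlap (limma adjusted p = 1 and 0.762). Of 14 nutrient-sensing genes measured (20 listed), 0 passed without the block and 2 (14.3%) rose with it, Mitf and Rheb (median 0.16). A higher mean in ATF4 arrays was found for 13 of the 14 (92.9%). Within every sample number 7 (50.0%) were higher and 1 lower. Rheb encodes the small GTPase that switches on mTORC1 at the lysosome. It had 9.89, 10.01 and 9.40 in ATF4 arrays, against 9.10, 9.19 and 8.44 in control arrays. The difference was 0.86, a 1.81-fold higher level (limma adjusted p = 0.295, or 0.00992 for the block). In the block fit it passed whichever of the 3 pairs was left out, with a limma adjusted p of 0.00512 to 0.0452.

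Marker lists of cell states were read beside these values. Of 6 macrophage markers measured (8 listed), 0 passed in either fit, 5 of them, all but Cd68, were dimmer than 75% of rows, and the list mean was 4.74 to 5.02 in ATF4 arrays and 4.63 to 5.14 in control arrays. By their means 2 of the 6 were higher in ATF4 arrays and 4 lower, with a median of -0.01. Within every sample number 1 was higher and 2 were lower. Ptprc, the leukocyte antigen CD45, had a difference of 0.75 (limma adjusted p = 0.222, or 0.0568 for the block). It was the 1 macrophage marker whose groups did not overlap, where 4.5% of all rows had separate groups with ATF4 higher. All 8 myotube markers measured (13 listed) were lower in ATF4 arrays by their means, with list means of 8.38 to 8.86 in ATF4 arrays and 8.58 to 9.19 in control arrays. Mef2c fell with the block (-0.73, limma adjusted p = 0.0289), as 1.16% of all rows did. The 7 markers of cycling myoblasts were also all lower by their means, with list means of 6.82 to 7.03 in ATF4 arrays and 7.21 to 7.23 in control arrays, and 0 passed in either fit. Of all rows, 41.7% had a higher mean in ATF4 arrays. Lower within every sample number were 6 of the 8 myotube and 5 of the 7 cycling myoblast markers, against 24.5% of all rows. Of the 5 adipocyte markers 0 passed, with list means of 4.73 to 5.13 in ATF4 arrays and 4.68 to 5.35 in control arrays. The part of these shifts in the values of autophagy and lysosome genes was not tested.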

How the data were processed

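Per the labels' protocols, RNA was isolated in TRIzol, and amplified cDNA was fragmented and tagged with biotin. The deposited values are 1 per array for 16700 transcript clusters; per the submitters' processing notes they were made with GCOS and RMA against mm9. The authors' values are taken to be log2, inferred from their range of 1.22 to 12.4, and each fold rests on that reading. How RMA was set, and whether rows were filtered, is not given in the sources used here, and depth does not apply to arrays.

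Rows were named from the platform annotation: 14988 carried 1 gene symbol, 1018 several and 694 none. None of the members had more than 1 row; other genes with several rows (Atg2b, Wdfy3, Arsb and Ppt1 among those listed) were represented by the brightest. All rows went into 1 fit (R 4.3.3, limma 3.58.1: lmFit, then eBayes, no filter, two-sided, Benjamini-Hochberg over 16700 rows, threshold 0.05), with 4 residual and 6.30 prior degrees of freedom, or 2 and 3.77 with the sample number as a block. Deviations from group means correlated by 0.578, 0.636 and 0.782 across rows for arrays of the same number in the titles, and by -0.666 to 0.221 otherwise, so the numbers were read as pairs. Of 99 rows past the threshold, 97 also passed with the block in the same direction. Data of 16700 rows were simulated with the row means and spreads of this comparison. Of changes of 2 (log2), 87.0% were recovered without the block and 97.0% with it, and of changes of 1, 30.0% and 50.0%. A pair effect for same-numbered arrays was written into the simulated rows, so the gain with the block was built in. Spreads that differ between arrays were not simulated, so these shares may not hold for the real arrays.

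The members and lists were chosen with earlier results of these data known, so p-values are adjusted over all rows and no list was tested. Values on every array are given for members that passed in either fit and for the 2 members with the smallest p in each role; other listed genes were named where they passed, or by the smallest p. Alternatives were the block, 4 rescalings, filters on dim rows, eBayes trend and robust settings, array weights and arrays left out. Promoter windows were matched by symbol for 31 of 40 members. Coordinates are those of GRCm38.p6 and not of the arrays' build.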

Additional observations from a re-analysis of the deposited data

How the results depend on the processing

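The count of rows past the threshold was 99, and 594 with the replicate block, 57 when arrays were centred on their median, 151 with cyclic loess, 561 with array weights and 157 without both number 3 arrays. It ranged from 38 (without ATF4 array 1) to 243 (without control array 3) when 1 array was left out, and from 261 to 630 when 1 pair was left out of the block fit (354 without number 1). Among the 36 members, 0 passed except with the block (2), with array weights (1, Wipi2) and in the block fit with 1 pair left out (0 to 3, the 3 being Wipi2, Atg4a and Atp6v1h without number 2). No member was called lower under any alternative run. Among the other pathway genes 1 rose, 4 with the block or with array weights, 2 with cyclic loess, 0 when arrays were centred or scaled, 0 to 1 with 1 array left out and 2 to 4 with 1 pair left out of the block fit. The autophagosome median (0.08) ranged from 0.021 to 0.16 and the lysosome median (0.14) from 0.05 to 0.23 with 1 array left out. The gap between them (-0.07) was 0.024 after scaling to one median and interquartile range (lysosome median 0.062) and -0.10 to -0.01 with 1 array left out. The cause of these shifts was not tested. The rescalings moved the median of all rows by at most 0.04. Taking the mean of a gene's rows in place of the brightest could not change either median, because no member had more than 1 row. It was not run for the counts of calls. The block changed no call of a member other than Wipi2 and Atg4a, and leaves 2 residual degrees of freedom, so its calls rest on few arrays.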
